A study of Homo sapiens with 2 samples.

Results

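The major histocompatibility complex (MHC) is a gene-dense stretch on the short arm of chromosome 6. It was taken here as chromosome 6 from 29600000 to 33500000 (build hg38), and its members were the protein-coding genes of RefSeq (GRCh38.p14) with both ends inside it. This gave 151 of the 19974 protein-coding genes on chromosomes 1 to 22 and X. Of the accessible regions deposited for each library, 309 of 98152 in the untreated library and 350 of 122399 in the lactate library lay in the interval. The data were ATAC-seq libraries of CAL27, an established human oral squamous cell carcinoma line. ATAC-seq uses the Tn5 transposase to cut and tag DNA that is not wrapped in nucleosomes, so that tags pile up over open promoters and enhancers. The first library came from cells labelled with no treatment and the other from cells given 10 mM lactate for 24 h. Both groups were the same line, no vehicle control was named, and each group was 1 library, so no difference below has a replicate check and no test was possible.

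Class I molecules carry peptides made inside the cell to CD8 T cells, with beta-2-microglobulin as their light chain. The peptides are cut by the proteasome, pumped into the endoplasmic reticulum by the TAP transporter and loaded with the help of tapasin. Class II molecules carry peptides from the endosome to CD4 T cells, are loaded by HLA-DM, and are made mainly by professional antigen-presenting cells, although epithelial cells can be induced to make them. The class III segment between them holds complement, tumour necrosis factor and heat shock genes beside many housekeeping genes. Class I promoters are known for an upstream enhancer bound by NF-kappaB and interferon regulatory factors. Class I and class II promoters share an SXY module whose Y box is a CCAAT element.

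The 250 bases before the transcription start of 7 antigen presentation genes are shown because their regions carried the comparisons that follow: HLA-F, HLA-B and HLA-C as class I heavy chains, TAP1 and TAP2 as a transporter pair, and HLA-DMA and HLA-DMB as a class II loading pair. They are RefSeq sequences of GRCh38.p14, 5′ to 3′ on each gene's own strand. Capitals mark any match, on either strand, to 1 of 6 motifs. The first is CCAAT. The interferon core is GAAA, then any 2 bases, then GAAA again. The kappaB core is GGGA followed by any 4 bases and CC. A further motif, TGACG, is the core of CREB and ATF sites. GGGCGG is the core of GC boxes bound by SP factors. The AP-1 motif was searched as TGANTCA. Matches of different motifs can overlap.
HLA-F, chr6:29723184-29723433, plus strand: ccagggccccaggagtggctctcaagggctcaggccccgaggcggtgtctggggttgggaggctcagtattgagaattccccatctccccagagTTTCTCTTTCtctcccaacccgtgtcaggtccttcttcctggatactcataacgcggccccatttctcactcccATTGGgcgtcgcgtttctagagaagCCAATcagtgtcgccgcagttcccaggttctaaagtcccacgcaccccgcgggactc
HLA-C, chr6:31272093-31272342, minus strand: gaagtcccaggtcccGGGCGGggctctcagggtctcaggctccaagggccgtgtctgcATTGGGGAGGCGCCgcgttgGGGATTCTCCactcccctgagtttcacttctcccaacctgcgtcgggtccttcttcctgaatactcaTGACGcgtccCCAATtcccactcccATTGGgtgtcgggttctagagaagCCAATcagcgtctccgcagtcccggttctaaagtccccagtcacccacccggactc
HLA-B, chr6:31357180-31357429, minus strand: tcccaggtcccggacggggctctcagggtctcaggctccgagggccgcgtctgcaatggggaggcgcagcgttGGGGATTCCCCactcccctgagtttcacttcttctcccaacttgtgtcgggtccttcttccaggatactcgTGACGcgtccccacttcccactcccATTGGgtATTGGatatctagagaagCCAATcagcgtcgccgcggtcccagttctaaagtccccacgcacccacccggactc
TAP1, chr6:32853705-32853954, minus strand: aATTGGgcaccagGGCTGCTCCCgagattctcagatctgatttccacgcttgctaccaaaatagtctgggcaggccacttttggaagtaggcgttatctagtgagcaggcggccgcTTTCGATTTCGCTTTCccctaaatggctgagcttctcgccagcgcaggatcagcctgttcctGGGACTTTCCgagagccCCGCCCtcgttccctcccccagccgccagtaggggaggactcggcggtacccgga
TAP2, chr6:32838740-32838989, minus strand: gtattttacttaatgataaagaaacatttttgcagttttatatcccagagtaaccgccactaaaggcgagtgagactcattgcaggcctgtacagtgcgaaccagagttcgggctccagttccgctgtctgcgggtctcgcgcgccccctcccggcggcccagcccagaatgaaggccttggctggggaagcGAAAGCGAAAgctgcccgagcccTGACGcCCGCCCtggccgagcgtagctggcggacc
HLA-DMA, chr6:32953098-32953347, minus strand: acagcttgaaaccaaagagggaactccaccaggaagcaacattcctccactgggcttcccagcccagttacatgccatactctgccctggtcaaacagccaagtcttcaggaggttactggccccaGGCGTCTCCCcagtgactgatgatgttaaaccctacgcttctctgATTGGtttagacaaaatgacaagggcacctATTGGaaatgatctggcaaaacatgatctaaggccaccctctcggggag
HLA-DMB, chr6:32941029-32941278, minus strand: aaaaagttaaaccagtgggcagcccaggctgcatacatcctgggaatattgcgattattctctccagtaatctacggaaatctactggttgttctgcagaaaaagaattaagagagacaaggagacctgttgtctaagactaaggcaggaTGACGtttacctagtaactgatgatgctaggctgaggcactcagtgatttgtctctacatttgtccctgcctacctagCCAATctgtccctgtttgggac

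Of these windows, 6 lay wholly inside a region listed in both libraries, and the HLA-DMB window lay partly inside one. The HLA-F, HLA-C and HLA-B windows each held CCAAT close to the start, at 57, 56 and 56 bases before it. HLA-B held kappaB cores 177 and 176 bases before its start, which overlap, and HLA-C held them 188 and 172 bases before. The HLA-F window had none of the kappaB matches and held the interferon core 156 bases before its start. TAP1 held overlapping interferon cores at 134 and 128 bases, and TAP2 held 1 at 58 bases. HLA-DMA held CCAAT on the opposite strand at 79 and 49 bases, and HLA-DMB held CCAAT 22 bases before its start.

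The RefSeq table gave a sequence for 190 starts of 135 members and for 22132 starts of 15812 protein-coding genes. CCAAT stood in 37.4% of members' starts and in 32.7% of all starts. It was found before 4 of 6 starts of class I chains, 7 of 9 of class II chains and 4 of 4 of the class II loading genes. The interferon core stood in 7.37% of members' starts against 2.71% of all, and in 3 of 7 starts of the peptide supply genes. The other motifs stood at close shares in members and in all starts: 26.3% and 25.8% for the kappaB core, 24.7% and 24.1% for TGACG, 51.1% and 53.7% for GGGCGG, and 5.79% and 5.35% for AP-1. A match describes the letters of the window and is not evidence of binding.

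Height was measured as the authors' summit pileup, the number of extended tags covering a region's highest point, here called summit tags. The total was 18248413 tags in the untreated library and 15401276 in the lactate library. The ratio is lactate over untreated after division by those totals, and its 95% interval is an exact conditional Poisson interval that covers counting error only. Regions shared by the libraries (narrow single-summit ones of 218 to 226 bp left out) had a median ratio of 1.66 across the genome, and 89.5% of shared regions outside the MHC had a ratio above 1. A relative ratio was therefore also computed by dividing by the median of shared regions with equal summit tags, in 20 bins. Whether the genome-wide shift came from the treatment or from the preparation of a library cannot be told apart with 1 library a group, nor can the share of cells that are open at a site and the openness in each cell. Both libraries listed regions at the starts of 8 of 10 squamous markers (KRT14 and TP63 had none) and of 4 of 10 leukocyte markers. The share over all protein-coding genes was 61.2%. PTPRC, MS4A1, CD79A, ITGAM and LCP1 were among the leukocyte markers in neither library. CD68 (85 and 161 summit tags) and CD14 (34 and 54) were among the other 4.

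The MHC held 79.2 listed regions per Mb in the untreated library and 89.7 in the lactate library. The rest of chromosome 6 held 36.0 and 44.0, and all chromosomes outside the MHC held 33.2 and 41.4, taking each chromosome from its first to its last listed region. Set against its genes the order was the opposite, with 2.05 and 2.32 regions per protein-coding gene in the MHC and 4.94 and 6.16 outside it. Class I (to the end of MICB at 31511124) held 82.2 and 93.7 regions per Mb. Class III (up to BTNL2, from 31511125 to 32393338) held 80.5 and 89.5, and class II held 73.2 and 83.1. Within class II the classical stretch held 63.7 and 75.4 per Mb and the extended stretch, from COL11A2 at 33162694 onward, 94.9 and 101. The map of summit heights along the interval shows these segments. Narrow regions were 7.12% of the untreated library's regions in the MHC and 17.4% outside, although their number per Mb was close, at 5.64 and 5.76.

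**Figure D1:**
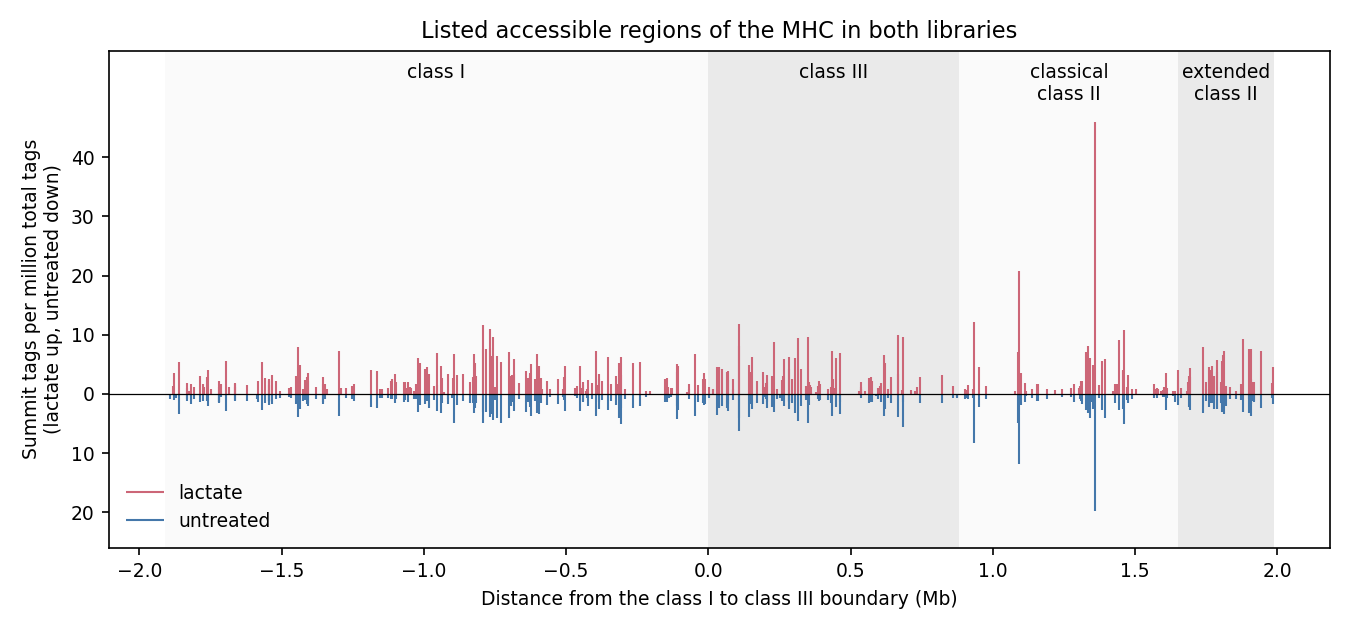
Summit tags per 1000000 total tags of every listed region of the MHC, against distance in Mb from the class I to class III boundary, with the lactate library drawn upward and the untreated library downward. Shading separates the 4 stretches, and the tallest line, in classical class II, is a narrow region with 361 untreated and 708 lactate summit tags.

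Of the untreated library's MHC regions, 91.9% (exact binomial 95% interval 88.3 to 94.7) overlapped a lactate region by at least 1 bp, beside 90.0% outside. Of the lactate library's MHC regions, 80.6% (76.0 to 84.6) overlapped an untreated region, beside 72.2% (72.0 to 72.5) outside. MHC regions were also taller, with a median of 35 lactate summit tags against 22. Outside regions with the same pileups as those of the MHC were overlapped in 83.2% for the lactate library and in 94.0% for the untreated library, so at equal pileup both MHC shares were slightly below the outside ones. By segment the overlapped share of lactate regions was 83.2% in class I, 73.4% in class III and 81.5% in class II, with overlapping intervals (76.9 to 88.4, 62.3 to 82.7 and 72.1 to 88.9). The merged lists gave 368 regions, of which 275 were in both libraries, 68 were lactate-only and 25 untreated-only (18.5% and 6.79%, beside a background of 26.0% and 7.48% of merged regions on all chromosomes). With both lists cut to equal length the order of the last 2 changed, to 30 lactate-only and 53 untreated-only regions. These counts were not set beside those of all chromosomes at that setting, so they describe the lists within the MHC only. The median ratio of shared regions was 1.76 in class I, 1.83 in class III and 1.71 in class II, and 1.65 outside the MHC.

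A region within 1 kb of a gene's start was listed in both libraries for 100 members (66.2%, 58.1 to 73.7), beside a background of 61.2% of all protein-coding genes. For 8 members (5.30%, background 5.58%) only the lactate library had one, for 1 (0.662%, background 0.706%) only the untreated library, and for 42 (27.8%, background 32.5%) neither. For 16 members with no listed start, HLA-E and HLA-DRA among them, either annotated end was used. These shares were near the background. The 100 members in both libraries shared 81 distinct regions, since many MHC genes are neighbours with a common promoter.

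**Figure D2:**
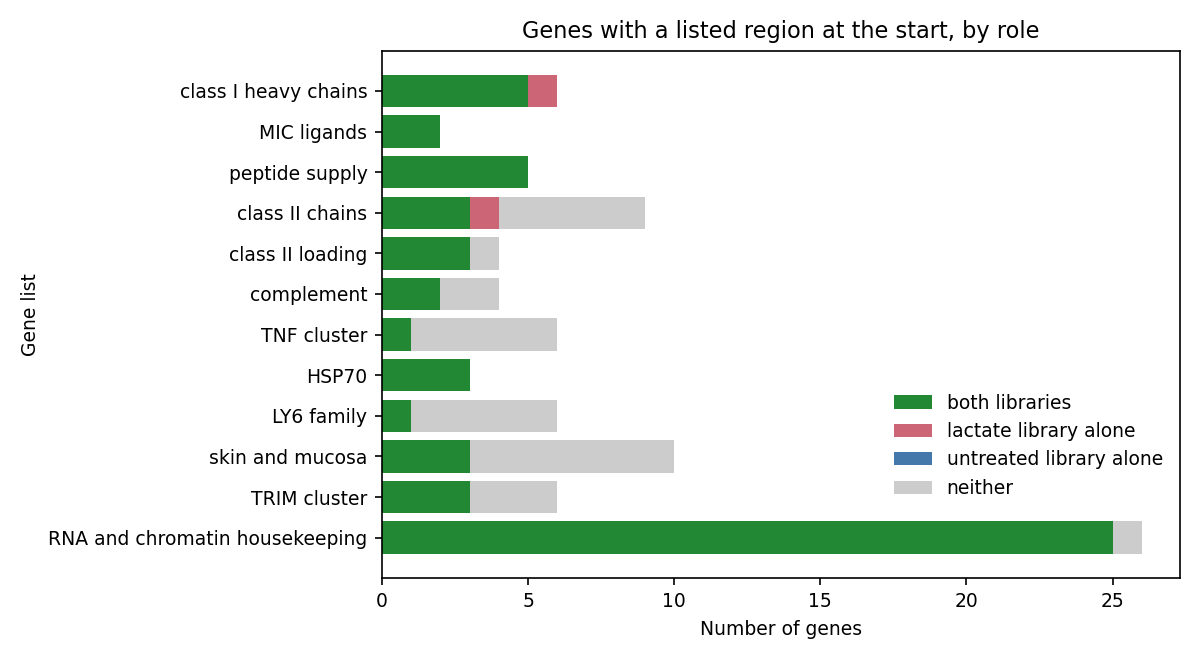
Number of genes in each role list, coloured by the libraries that listed a region at the gene's start (both, lactate alone, untreated alone or neither). The class I, MIC, peptide supply and HSP70 lists have no gene in neither library. In neither are 5 of 9 class II chains and 5 of 6 TNF cluster genes, beside 32.5% of all protein-coding genes.

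At the 100 members the median ratio was 1.96 (range 1.06 to 3.32), beside 1.84 for genes outside the MHC. The lactate library was the higher at all 100 per 1000000 total tags. After division by the genome-wide median of 1.66, 25 of the 100 were lower in it, beside 36.4% of all genes. The interval of the ratio lay above 1 at 80 members, and the same share for genes outside the MHC was not computed. A ratio of at least 2 was found at 45 members (45%, 35.0 to 55.3), beside a background of 39.4%, and a ratio under 1 at 0 members, beside a background of 3.08%. The median relative ratio of the members was 1.03 (0.616 to 1.66), beside 1.01 outside. The relative interval lay above 1 at 8 members and below 1 at 7, or 8% and 7%, beside 6.56% and 6.30% of genes outside. These shares were close to those outside the MHC.

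**Figure D3:**
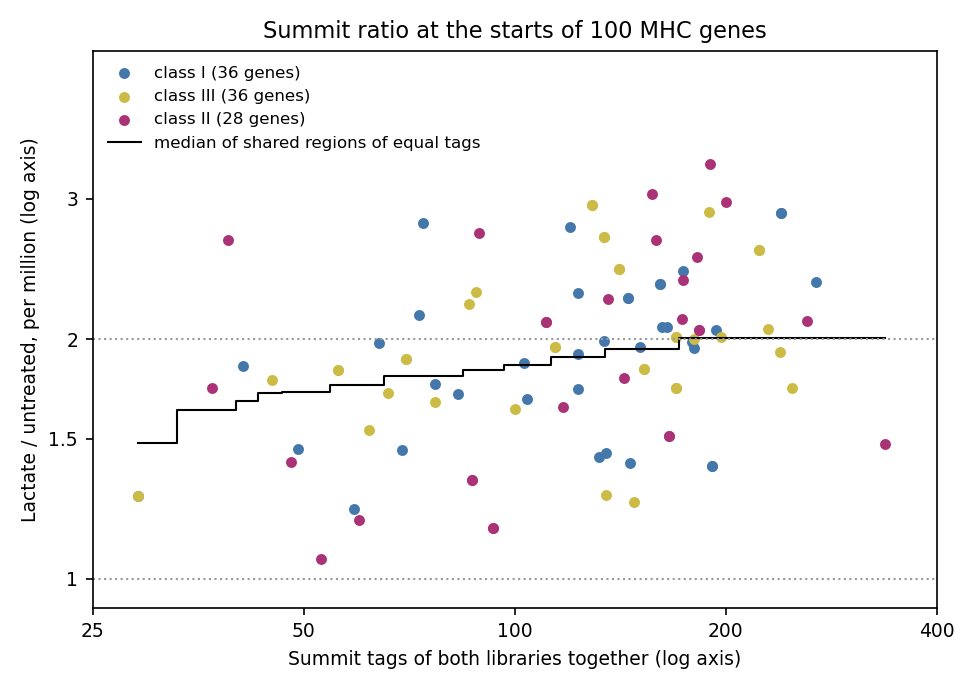
Lactate to untreated ratio of summit tags per 1000000 total tags (log axis) against summit tags of both libraries together (log axis) for the 100 members with a shared start region, coloured by segment. The stepped line is the median of shared regions of equal tags, and the points lie on both sides of it, from 1.06 to 3.32.

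The class I heavy chain genes encode the peptide-binding chains. HLA-B had 24 summit tags in the untreated library and 40 in the lactate library, at 31356612 to 31357520. HLA-C, a main ligand of killer cell receptors, had 36 and 84. As summit tags per 1000000 total tags, these were 1.32 and 2.60 for HLA-B and 1.97 and 5.45 for HLA-C, so the lactate library was the higher for each. HLA-B had the lower summit of the pair in both libraries. Reads of polymorphic genes such as these can fail to map to the reference, and the part of that in the order between genes was not tested.

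The ratio was 1.97 (1.16 to 3.42) for HLA-B and 2.76 (1.85 to 4.21) for HLA-C. HLA-C had a relative ratio of 1.45 (0.973 to 2.21), whose interval reached just below 1. The ratio of HLA-C divided by that of HLA-B was 1.40 (0.699 to 2.78) and by that of HLA-E 1.41 (0.824 to 2.44), so HLA-C did not differ from either beyond counting error. These intervals also leave room for more than a doubling.

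HLA-E, whose product presents leader peptides of other class I chains to NK cells, had 57 untreated and 94 lactate summit tags, a ratio of 1.95 (1.39 to 2.77) and a relative ratio of 1.0. HLA-F had 26 and 47, a ratio of 2.14 (1.30 to 3.60). HLA-G, best known from the placenta, had a region in the lactate library alone, with 18 summit tags at its most upstream listed start (29826347 to 29826638). That region also overlaps the pseudogene HCG4P8. The windows before its other listed starts, 29826967 and 29827825, overlapped no region in either library. Of the HLA-G windows, only that before 29827825 held CCAAT or a kappaB core. HLA-B, HLA-C, HLA-E and HLA-F, each with a region in both libraries, had relative ratios from 1.0 to 1.45. MICA and MICB, stress-induced ligands of the NKG2D receptor, had 50 and 73 and 31 and 38 summit tags, both at a listed start inside the gene. Their ratios were 1.73 (1.19 to 2.53) and 1.45 (0.880 to 2.41), and the relative ratios, 0.910 and 0.808, were below 1 with intervals that included it. Within 1 kb of the annotated lower end of each, other regions stood in both libraries. Near MICA, the region at 31399622 to 31400254 had 76 and 79 summit tags and a relative ratio of 0.633 (0.456 to 0.879). The region at 31401450 to 31401727, also near MICA, had 36 and 57 and a relative ratio of 1.03 (0.665 to 1.60). That near MICB (31493816 to 31494089) had 34 and 55 and a relative ratio of 1.05. A further region near MICB (31495695 to 31495905) had 29 in the lactate library alone.

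**Figure D4:**
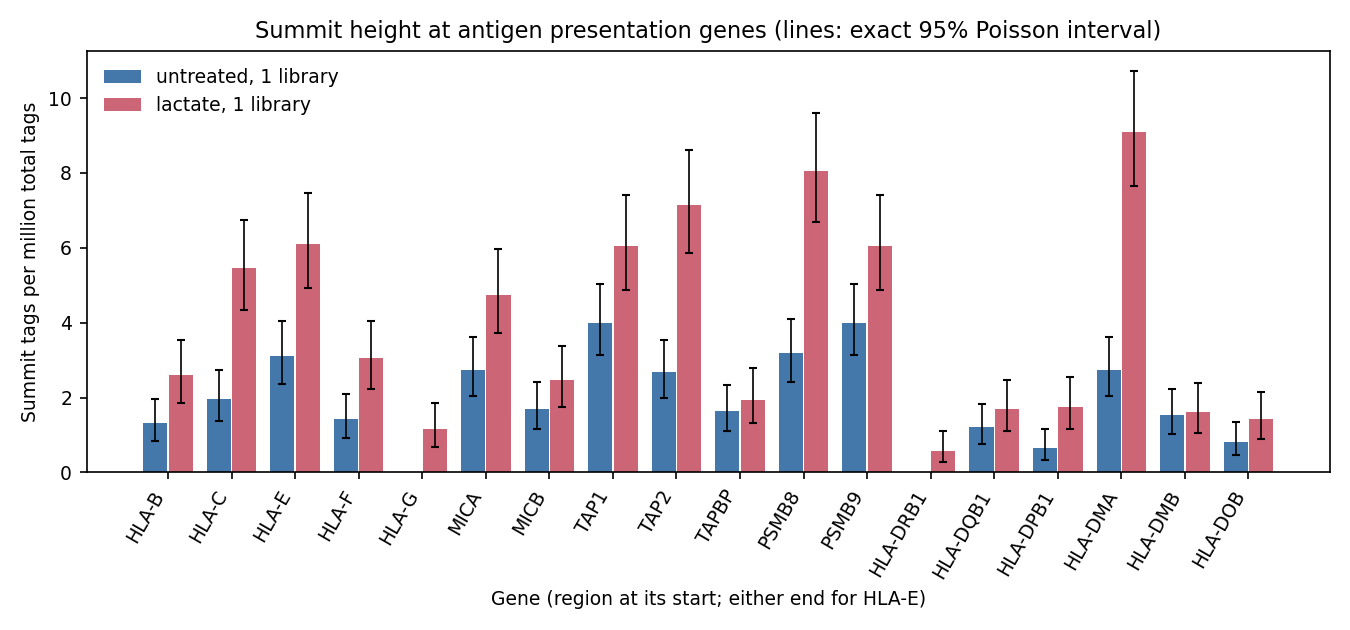
Summit tags per 1000000 total tags at the start region of class I, MIC, peptide supply and class II genes without and with lactate (1 library each, lines are exact 95% Poisson intervals for counting error). HLA-DMA has the widest gap, 2.74 against 9.09, while HLA-DMB and TAPBP have nearly equal bars.

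The peptide supply genes all had start regions in both libraries and did not move alike. TAP1 and PSMB9 (an immunoproteasome subunit) are transcribed in opposite directions from 1 shared region (32853219 to 32854317), which had 73 untreated and 93 lactate summit tags. TAP2, the partner of TAP1 in the transporter, had 49 and 110, and PSMB8, another immunoproteasome subunit, had 58 and 124. TAPBP, which encodes tapasin, had 30 in each library.

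The ratio was 1.51 (1.10 to 2.08) at the TAP1 and PSMB9 region, 2.66 (1.88 to 3.80) at TAP2, 2.53 (1.84 to 3.52) at PSMB8 and 1.18 (0.690 to 2.03) at TAPBP. In relative terms TAP2 (1.37) and PSMB8 (1.26) were above 1, and TAP1 (0.776) and TAPBP (0.676) were below it, each with an interval that included 1. With a window of 5 kb TAPBP took the region at ZBTB22, and its ratio became 1.79. The ratio of TAP2 divided by that of TAP1 was 1.76 (1.09 to 2.85), a pair compared after its values were seen. Taking either gene end gave TAP1 the PSMB8 region and a ratio of 2.53, close to that of TAP2. A further region inside PSMB9 (32854496 to 32854871), with 24 summit tags, was listed in the untreated library alone.

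The class II chain genes had few start regions. HLA-DRB5, HLA-DQA1, HLA-DQA2, HLA-DQB2 and HLA-DPA1 had none within 1 kb of a start in either library. These were 5 of 9 chains, beside 32.5% of all protein-coding genes. HLA-DRB1, the beta chain of the most abundant class II molecule, had 9 summit tags in the lactate library alone. HLA-DQB1 had 22 untreated and 26 lactate summit tags, with a ratio of 1.40 (0.763 to 2.59). HLA-DPB1 had 12 and 27, with a ratio of 2.67 (1.31 to 5.78) and a wide relative interval of 0.802 to 3.55.

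HLA-DRA, the invariant partner of the HLA-DRB chains, has no listed start, and a region lay near each of its annotated ends. The one over its lower-coordinate end (32439650 to 32440075) had 12 and 14 summit tags, a ratio of 1.38 and a relative ratio of 1.0. The other (32445893 to 32446115) was a narrow region outside the gene with 150 and 187 summit tags, and it gave HLA-DRA its ratio of 1.48 (1.19 to 1.84). Apart from that narrow region, no class II chain had more than 27 summit tags in either library. The longest stretch of the MHC with no listed region in either library, 104 kb from 32485940 to 32589734, held HLA-DRB5. Uniquely mapped tags are scarce where genes have near-identical copies, and the part of that in this stretch was not tested.

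The class II loading genes held both extremes of the MHC. HLA-DMA, a subunit of the HLA-DM exchange factor, had 50 untreated and 140 lactate summit tags at 32952963 to 32953465, a ratio of 3.32 (2.39 to 4.68). HLA-DMB, the other subunit, had 28 and 25 at 32940666 to 32941242, a ratio of 1.06 (0.592 to 1.88). These were the highest and the lowest ratio and relative ratio of all 100 members, at 1.66 (1.19 to 2.33) and 0.616 (0.344 to 1.10) in relative terms. The ratio of HLA-DMA divided by that of HLA-DMB was 3.14 (1.59 to 6.17), which sets the highest of 100 ratios against the lowest after both were seen, and so describes their distance and tests nothing. HLA-DOB, part of the HLA-DO modulator, had 15 and 22 summit tags and a relative ratio of 1.07. HLA-DOA, its partner, had no region at its start in either library.

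**Figure D5:**
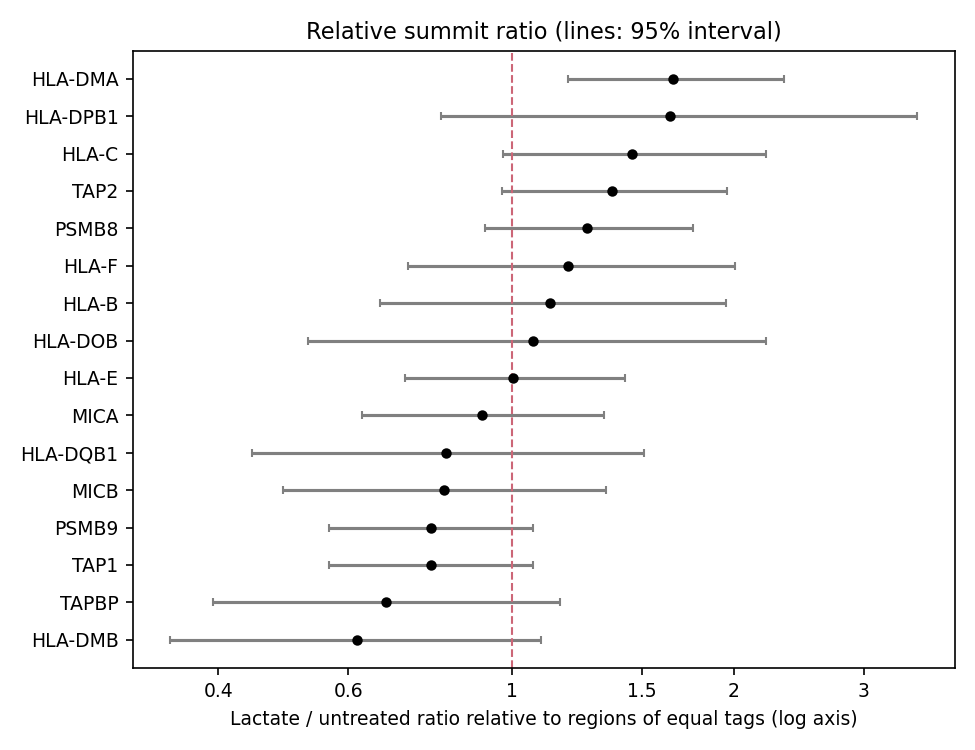
Ratio of lactate to untreated summit tags per 1000000 total tags, divided by the median of shared regions with equal tags (log axis), for 16 antigen presentation genes with a start region in both libraries, HLA-DRA not drawn because its region is narrow; lines are 95% intervals for counting error. Of the genes drawn, HLA-DMA, at 1.66, has an interval that does not include 1, and the other intervals include it.

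In class III, CFB, a protease of the alternative complement pathway, had 67 untreated and 113 lactate summit tags and a ratio of 2.00 (1.46 to 2.75). C2, its classical pathway counterpart, had 22 and 34 at a region shared with EHMT2, a histone methyltransferase. C4A and C4B, near-identical copies of complement component 4, had no region in either library and lay in an empty stretch of 66.7 kb. TNF, the inflammatory cytokine, had 42 and 58 summit tags and a ratio of 1.64 (1.08 to 2.50), which became 0.986 after division by 1.66. Its neighbours LTA and LTB (lymphotoxins), LST1, NCR3 and AIF1 had no start region in either library.

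The HSP70 genes encode heat-induced chaperones. HSPA1A and HSPA1L shared a region with 60 and 93 summit tags, and HSPA1B had 84 and 146. Their ratios were 1.84 (1.31 to 2.58) and 2.06 (1.56 to 2.73), and dividing the second by the first gave 1.12 (0.719 to 1.74). HSPA1A and HSPA1B are near-identical, so unique mapping may have split or lost their tags. For VARS1, the valyl-tRNA synthetase, a region near either end was taller in the lactate library. The end it shares with VWA7 had 37 and 92 summit tags and a relative ratio of 1.55 (1.05 to 2.34), and the opposite end had 25 and 66 and a relative ratio of 1.71.

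Housekeeping genes of RNA and chromatin had a start region in both libraries in 25 of 26 cases, with RING1 in neither, beside 61.2% of all protein-coding genes. Their ratios ran from 1.16 to 2.95 with a median of 2.10. The lowest were at WDR46 and PFDN6, which share a region with 47 and 46 summit tags and a relative ratio of 0.634 (0.413 to 0.973), while a region near the other end of WDR46 had 27 and 74 and a ratio of 3.25. BAG6, a chaperone of misfolded proteins, had 72 and 76 (relative ratio 0.643, 0.460 to 0.900), and DDX39B, an RNA helicase of mRNA export, had 65 and 70 (0.656, 0.461 to 0.934). Only these and the region shared by PPP1R10 and MRPS18B (88 and 103) had a relative interval below 1, apart from that of the narrow region near HLA-DRA.

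At the other end, ZBTB9, a zinc finger gene, had 44 untreated and 113 lactate summit tags and a relative ratio of 1.56 (1.10 to 2.27). C6orf136 had 22 and 52, with a relative ratio of 1.56 (0.930 to 2.70). FLOT1, a membrane raft protein, and IER3, an immediate early gene, shared a region with 70 and 170 summit tags and a ratio of 2.88 (2.17 to 3.86). IER3 has no listed start, and the shared region lies over its lower-coordinate end. Another region over its upper end (30744163 to 30744732) had 52 and 120 and a relative ratio of 1.41 (1.01 to 1.99). KIFC1, a mitotic kinesin, had 57 and 143, and MSH5, a meiotic mismatch repair gene, had 55 and 134. FLOT1, IER3, KIFC1 and MSH5 were named after their values were seen, as members with a relative interval above 1.

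Genes of skin and mucosa mostly had no listed start region. Of 10 such genes 7 had none in either library, beside 32.5% of all protein-coding genes, among them CDSN, which encodes corneodesmosin. DDR1, a collagen receptor, PSORS1C1 and CCHCR1 had ratios from 1.40 to 2.25. Of 6 LY6 family genes only LY6G5C had one (27 and 35 summit tags). TRIM15, TRIM26 and TRIM39 of 6 TRIM genes had regions in both libraries, with ratios from 1.85 to 1.98.

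The members with a start region in the lactate library alone had low summits. LOC105375012 had 19 tags, HLA-G 18, MCCD1 14, PBX2 and NOTCH4 10 each, HLA-DRB1 9 and COL11A2 7. GABBR1, a GABA receptor subunit, had 21 tags at its listed start, but a region over its annotated upper end (29632795 to 29633541) was in both libraries, with 19 and 55 tags and a relative ratio of 1.91 (1.12 to 3.41). COL11A2 and NOTCH4 had a region in both libraries at the opposite end of the gene, with 34 and 37 and with 101 and 148 tags. SAPCD1 was the member with one in the untreated library alone, with 12 tags. The lowest pileup listed in the MHC was 6 for untreated and 5 for lactate cells, so an unlisted site may still hold tags. Regions are called against local background, so where that is high an unlisted site may hold many more. BRD2, an acetyl-lysine reader, shows that a gene can hold several kinds at once. Its most upstream start had 60 summit tags, at a fold enrichment of 2.83, in the lactate library alone (32968428 to 32968695). A listed start further in (32971543 to 32972657) had 94 and 167 and a ratio of 2.11 (1.63 to 2.74).

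Away from gene starts and ends by over 1 kb, the MHC held 227 merged regions, 163 of them in both libraries, 45 lactate-only and 19 untreated-only (19.8% and 8.37%, beside a background of 27.6% and 7.86% of such regions on all chromosomes). By summit tags of both libraries together, the tallest (32868174 to 32868396), between genes 8323 bp from PSMB9, had 361 untreated and 708 lactate summit tags, a ratio of 2.32 (2.04 to 2.65) and a width of 223 bp. The next (32603381 to 32603607), 13533 bp from HLA-DRB1, had 217 and 320 and was 227 bp wide. The others of the top 5 were at 31618363 to 31618583, 1348 bp from AIF1 (114 and 182), at 30751993 to 30752825, 7446 bp from IER3 (81 and 149), and at 32599126 to 32599346, 9278 bp from HLA-DRB1 (90 and 108). Of these 5, 3 belonged to the narrow class and the second was 1 bp too wide for it. Whether such narrow, tall regions are repeats was not tested. The region 7446 bp from IER3, 833 bp wide, had the most summit tags of both libraries together among distal ones wider than 227 bp, with a relative ratio of 1.09.

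Antigen presentation genes elsewhere in the genome had a start region in both libraries in 30 of 30 cases, beside 61.2% of all protein-coding genes. B2M, the class I light chain, had 63 untreated and 123 lactate summit tags. NLRC5, the class I transactivator, had 31 and 43, and CIITA, its class II counterpart, had 26 and 35. IRF1, an interferon-induced factor that binds the interferon core, had 48 and 141, a relative ratio of 1.74. TAPBPL, a tapasin relative, had 40 and 29, a ratio of 0.859, and ERAP2, a peptide-trimming peptidase, had 14 and 10, a ratio of 0.846. They were the 2 genes of this list with a ratio under 1. The list's ratios had a median of 1.85, beside 1.96 for the members.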

How the data were processed

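ATAC-seq of CAL27 cells was analysed from 1 untreated and 1 lactate library, grouped by their treatment labels. BWA 0.7.12, fastp 0.20.0, MACS2 2.1.0 and the build hg38 are listed, with no roles, in the submitters' processing notes, whereas MACS 2.2.7.1 called the peaks per the file headers. Per the file headers, the authors called each library on its own, with a q-value threshold of 0.05, shift -100, extension 200, summits on and no control, from files named for unique, deduplicated tags. The deposited pileup is a signal, the extended tags over the summit without scaling, and the deposited fold enrichment is a ratio to local background. Duplicates still in those files were kept, and aligner settings were not given in the sources used here.

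Summits of 1 region were joined (highest pileup kept), the lists merged at 1 bp of overlap, and starts matched within 1 kb with Python 3.11.15, pandas 2.3.3 and SciPy 1.17.1. The overlaps and intervals were tested on simulated data and against bedtools 2.31.1. With 1 library a group, values carry counting intervals and no test, and without molecular identifiers the intervals cover counting error only. Genes named were all members of the antigen presentation, MIC, complement, TNF and HSP70 lists, those with a start region in 1 library alone, the 5 highest and 5 lowest relative ratios among members with at least 20 summit tags, and the 5 tallest distal regions. Of these lists and the marker lists, 2 genes are not reported here by name. The members and lists were chosen with earlier results of these data known. Alternatives covered fold enrichment, list length, overlap, window, narrow regions, summed summits, scaling and gene ends.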

Additional observations from a re-analysis of the deposited data

How the results depend on the processing

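No paired analysis was possible because there is only 1 library per condition, which also leaves no replicate to omit. With a fold enrichment of at least 5, the MHC had 7 untreated-only regions, 96.2% of untreated and 65.8% of lactate regions were overlapped, and 19 members had a lactate-only start region and 0 had an untreated-only one (12.6% and 0%, beside 13.2% and 0.706% of all genes). With lists of equal length (98152 regions each) there were 53 untreated-only and 30 lactate-only regions, 82.8% and 89.4% were overlapped, and 4 members had a lactate-only and 8 an untreated-only start region (2.65% and 5.30%, beside 3.07% and 3.76% of all genes), an order that turned as fewer lactate regions were kept. A window of 500 bp left 0 members with an untreated-only start region, beside 0.681% of all genes. With a window of 5 kb 15 members were in neither (9.93%, beside 18.8% of all genes). That window gave 1 of 126 members a ratio under 1, beside 3.96% of all genes. Scaled to the median of shared regions, the members' median ratio was 1.18, with 1 at 2 or more and 25 under 1, beside 2.65% and 36.4% of all genes. Of the named genes' ratios, 23 moved with that scaling by more than their interval and 8 did not, while 31 of 31 stayed within it without narrow regions and with the 5 kb window. Either gene end for every gene, chosen after seeing the data, moved TAP1 to 2.53 and WDR46 to 3.25 and left 28 within their interval. An overlap of at least 50% of a region gave 34 untreated-only and 82 lactate-only regions, with 89.0% and 76.6% overlapped, and summing over summits gave median ratios of 1.71, 1.76 and 1.61 in class I, III and II. The counts of MHC regions and their overlapped shares at the alternative settings were not set beside those of all chromosomes. Within its interval, TAPBP still moved to 1.79 with the 5 kb window. Depth limits genes with few summit tags, such as HLA-DPB1 (12 and 27), whose ratio has an interval of 1.31 to 5.78.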

Other observations

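The 18 HLA pseudogenes of the interval are class I and class II relics that make no functional chain, and several of them overlapped listed regions. A region touching HLA-X (31462399 to 31463319) had 68 tags in untreated and 104 in lactate-treated cells, more than the HLA-B start region had in either library. HLA-X ends at 31462490, so most of that region lies outside it, and the region also overlaps the noncoding RNA gene HCP5. HLA-DPB2 had 50 and 54, at a narrow region of 219 bp, HLA-K 26 and 35 and HLA-H 22 and 24. HLA-P, HLA-T, HLA-U, HLA-W, HLA-N, HLA-DRB9, HLA-DRB6, HLA-Z and HLA-DPA3 had no region in either library. The pseudogenes named were chosen after their values were seen, and whether these regions belong to the pseudogenes or to neighbouring transcripts was not tested.

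Several regions in 1 library alone stood far above that library's lowest summits. In the lactate library alone, LINC00243 held a region with 53 summit tags, VWA7 held one with 46 inside the gene, and DDR1 one with 45 near a listed start. Their fold enrichments over local background were 7.58, 5.15 and 3.30. DDR1 also had start regions in both libraries, the tallest with 67 untreated and 79 lactate summit tags. In the untreated library alone, the tallest had 25 summit tags.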
